A study of Mus musculus with 18 samples.

Results

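Spp1, Sim2, Wnt5a, Tenm3, Rab6b, Mtus2 and Lypd2 are 7 of the 24421 genes counted in mouse esophageal organoids whose levels lay far apart between 2 numbered sets of cultures with a guide against Tgfbr2. They were chosen by their counts in premalignant organoids, where libraries of Tgfbr2-guide line 1 and line 2 differed in them, so their values in those libraries are given as a description, with no test. Their levels in the tumor libraries and under drug treatment were tested, though earlier results of these data were known when the genes were chosen. Organoids are three-dimensional cultures grown in a basement membrane gel from dissociated tissue, here esophagus. All 18 libraries were declared Trp53-/-, overexpressing Myc and carrying a guide against Cdkn2a. Premalignant organoids had a control guide (sgScr, n = 3) or the Tgfbr2 guide (sgTgfbr2), the latter as line 1 (n = 2) and line 2 (n = 2). The number 1 or 2 stands in the sample titles, and whether it marks a guide, a clone or a culture is not given in the sources used here. Tumor organoids had sgScr (n = 3) or sgTgfbr2 (n = 2). Further sgTgfbr2 tumor organoids were cultured for 72 h and then given DMSO as vehicle (n = 3) or the calcium channel blocker pinaverium bromide (PB) at 2 µM (n = 3). The listed medium of all groups, controls included, held A83-01, which inhibits the TGF-beta type I receptor. How far that receptor was blocked in these libraries was not tested. How many animals or clones stood behind each group is not given in the sources used here, so a p-value speaks only for the spread among the libraries compared, and that spread may be technical.

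The product of Tgfbr2 is the receptor that binds TGF-beta, and it passes the signal to the type I receptor and from there to Smad proteins that act in the nucleus. The 7 genes belong to different systems. Spp1 encodes osteopontin, a secreted ligand of integrins and CD44. Wnt5a encodes a secreted Wnt ligand that signals mainly through Ror receptors and planar polarity proteins rather than beta-catenin. Tenm3 encodes a teneurin, a large transmembrane adhesion protein that binds latrophilins on neighbouring cells. Sim2 encodes a transcription factor with a basic helix-loop-helix and a PAS domain that pairs with Arnt. Rab6b is a small GTPase of Golgi transport, Mtus2 encodes a microtubule-binding protein, and Lypd2 encodes a small secreted or membrane-anchored protein of the Ly6/uPAR family.

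Libraries held 14993749 to 21784140 counts, so that 3 counts stood for 0.138 to 0.200 CPM (a gene's share of the library's counts on a common scale). Tgfbr2 transcripts stood at 195 ± 20.8 CPM (mean ± SD, n = 3) in premalignant sgScr, at 130 ± 2.44 (n = 2) in line 1 and at 95.8 ± 13.6 (n = 2) in line 2, so the guide's target was lower, and still transcribed, in both lines. It stood at 112 to 129 CPM in tumor sgScr, at 67.5 and 71.2 CPM in tumor sgTgfbr2, and at 66.8 to 103 CPM in vehicle and PB. The tumor sgScr and sgTgfbr2 libraries went against their labels. Myc stood at 41.8 to 93.3 CPM there and at 290 to 647 CPM in every other library, although all were declared to overexpress it. Cdkn2a, the target of a guide in all groups, stood at 0, 0.528 and 1.11 CPM in tumor sgScr and at 168 and 136 CPM in tumor sgTgfbr2, which is given as a value and not as a check of the label. Summed over the marker lists, fibroblast markers reached 2449 to 3202 CPM in the tumor sgScr and sgTgfbr2 libraries against 0.258 to 4.69 CPM elsewhere, and immune markers 1031 to 1138 against 14.9 to 61.1 CPM. The macrophage markers Tyrobp, Lyz2 and Adgre1 were at 0 in all 13 other libraries. Of the 11 listed immune markers, 4 to 7 had counts in each of those groups, among them C1qb in vehicle. Skeletal muscle markers summed to 18972 to 19463 CPM in tumor sgScr and to 217 to 260 in tumor sgTgfbr2, whereas gastric gland and columnar markers summed to 2.13 to 2.69 CPM in tumor sgScr and to 29153 to 32248 in tumor sgTgfbr2. Both groups of that comparison are affected, so no value without them could be given, and the part of these cells in any tumor result below was not tested. In bulk RNA, fewer cells of a type and less RNA per cell cannot be told apart.

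Promoter sequence was at hand for 4 of the 7 genes, from RefSeq on GRCm38.p6, as windows of 300 bases that run from 250 bases before to 50 after a start site. The 4 windows are shown because they belong to a pair of genes that stood far higher in line 1 (Spp1 and Mtus2) and a pair that stood far lower (Tenm3 and Rab6b). They are printed 5′ to 3′ on the gene's strand. The Tenm3 window lies at a start site inside the gene as GENCODE M21 draws it, not at its outer end at 48843951. The Rab6b window also lies inside the gene as drawn there, which starts at 103111787. Capitals mark matches, on either strand, to an AP-1 motif (TGANTCA), a PAS-domain element (TACGTG), a SMAD element (CAGACA) or a RUNX motif (TGTGGT).
Spp1, chr5:104434861-104435160, plus strand: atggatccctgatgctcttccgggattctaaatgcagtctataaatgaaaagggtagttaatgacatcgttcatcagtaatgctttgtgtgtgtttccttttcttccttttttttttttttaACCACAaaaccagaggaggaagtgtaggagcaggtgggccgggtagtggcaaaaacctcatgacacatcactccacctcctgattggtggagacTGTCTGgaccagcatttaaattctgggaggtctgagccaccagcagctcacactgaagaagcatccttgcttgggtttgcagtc
Mtus2, chr5:147957070-147957369, plus strand: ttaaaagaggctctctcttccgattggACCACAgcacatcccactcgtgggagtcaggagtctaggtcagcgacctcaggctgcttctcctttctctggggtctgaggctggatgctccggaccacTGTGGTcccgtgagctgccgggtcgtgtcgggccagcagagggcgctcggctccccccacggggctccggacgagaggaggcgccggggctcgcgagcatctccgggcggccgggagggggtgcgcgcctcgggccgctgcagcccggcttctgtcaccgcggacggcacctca
Tenm3, chr8:48674641-48674940, minus strand: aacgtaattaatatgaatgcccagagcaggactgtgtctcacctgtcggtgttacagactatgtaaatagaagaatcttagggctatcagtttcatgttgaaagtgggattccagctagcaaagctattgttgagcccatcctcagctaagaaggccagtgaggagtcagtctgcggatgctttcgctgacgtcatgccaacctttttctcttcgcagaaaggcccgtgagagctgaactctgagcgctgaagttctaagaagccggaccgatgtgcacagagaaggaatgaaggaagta
Rab6b, chr9:103111824-103112123, plus strand: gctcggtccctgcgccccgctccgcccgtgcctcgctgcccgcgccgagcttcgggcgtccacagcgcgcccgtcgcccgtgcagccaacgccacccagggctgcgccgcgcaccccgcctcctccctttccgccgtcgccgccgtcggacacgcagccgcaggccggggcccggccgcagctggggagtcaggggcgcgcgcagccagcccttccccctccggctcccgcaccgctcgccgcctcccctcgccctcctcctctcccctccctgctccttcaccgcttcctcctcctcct

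The Spp1 window held 1 RUNX match, at position -128 from the start site, and 1 SMAD match, at -34. The Mtus2 window held 2 RUNX matches. Neither the Tenm3 nor the Rab6b window held any of these 4 motifs. The matches shown do not overlap one another. Of all 32851 promoter windows of this length, 16.8% held the RUNX motif, 21.04% the SMAD element, 7.81% the AP-1 motif and 3.23% the PAS-domain element. An E-box (CANNTG) was present in 72.3% of all windows and is not capitalised. It occurred once in the Spp1, Tenm3 and Rab6b windows and not in the Mtus2 window. RefSeq also lists a second window for Spp1, with 2 E-boxes and none of the other motifs, and for Mtus2, with 1 E-box and 1 SMAD match. These are matches of letters only.

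In the premalignant organoids the 7 genes fell into 2 sets, 3 that were high in line 1 and 4 that were low in it. On the log2 scale line 2 was nearer to the control guide than to line 1 for each gene, though barely so for Lypd2. Lypd2 in line 2 lay about as far from sgScr (3.74 ± 0.53) as from line 1 (3.87 ± 0.27). Against sgScr, 51.5% of all genes passed an adjusted p of 0.05 in line 1 and 58.1% in line 2, and the libraries of 68.0% and 72.3% did not overlap, as was true of all 7 genes in both lines. Squamous epithelial markers summed to 10337 to 10787 CPM in sgScr, 5896 to 6017 in line 1 and 8506 to 8695 in line 2, and their part in the differences below was not tested. In the 13438 genes compared, 26.3% passed an adjusted p of 0.05 between line 2 and line 1 and 0.759% lay 3 or more log2 units apart. All 7 genes did so and none overlapped between the lines, beside 69.1% of genes without overlap, which their choice made certain, and nothing is read from that count. Ranked by fold change over those genes, Sim2 was the 5th highest in line 2 against line 1, Wnt5a the 35th, Rab6b the 38th and Tenm3 the 39th, while Mtus2 was the 15th lowest, Spp1 the 16th and Lypd2 the 18th.

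**Figure D1:**
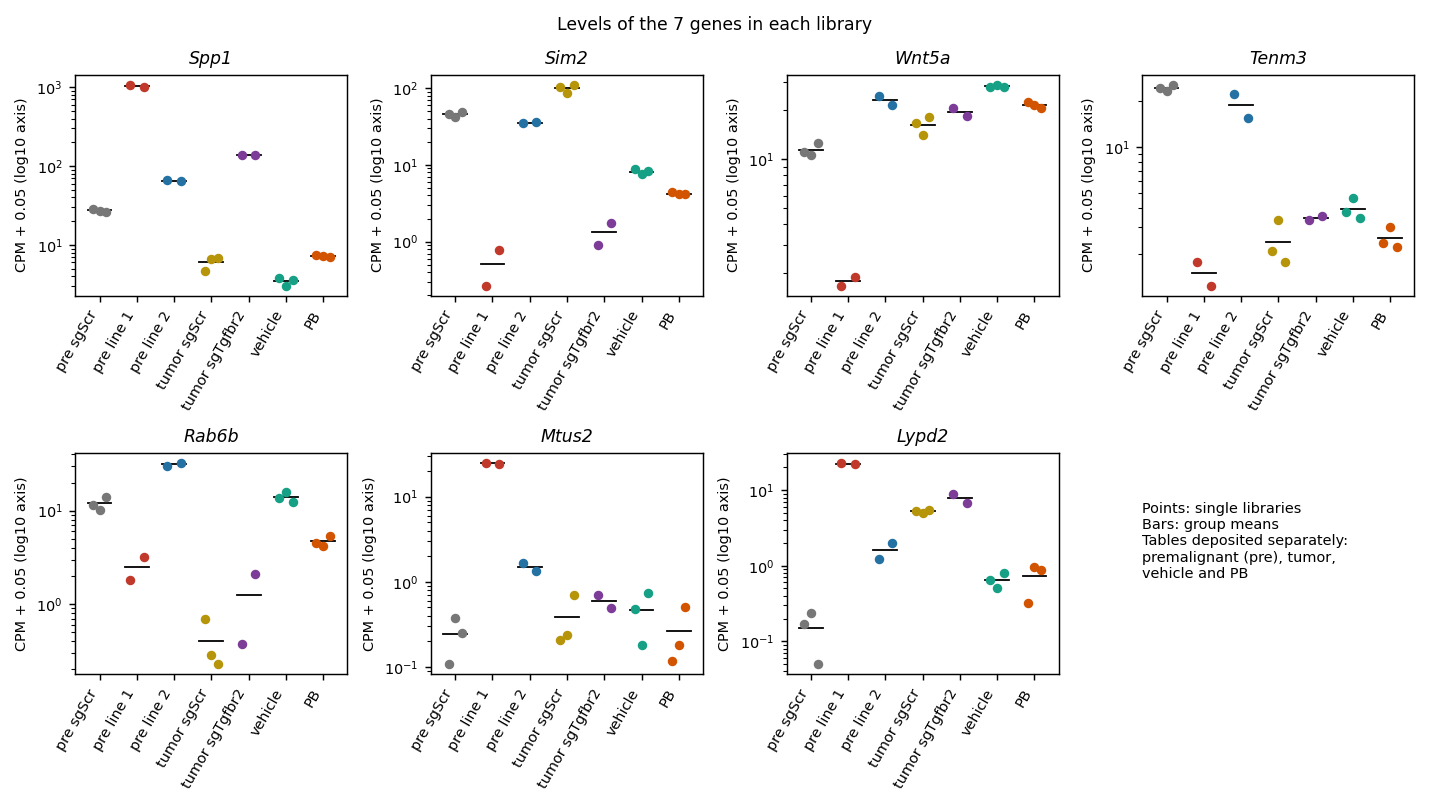
CPM of the library total (plus 0.05, log10 axis) of the 7 genes in each of the 18 libraries, with 1 point per library and a bar at each group's mean. Spp1, Mtus2 and Lypd2 peak in line 1, where Sim2, Wnt5a and Tenm3 are at their lowest, and Sim2 is again low in tumor sgTgfbr2.

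Spp1 (ENSMUSG00000029304.14, chr5:104435118-104441050, plus strand, 8 merged exon blocks), the osteopontin gene, stood at 28.8, 26.9 and 26.5 CPM in sgScr, at 1081 and 1022 CPM in line 1 and at 65.7 and 64.0 CPM in line 2. The line 1 libraries lay far above all others, and the line 2 libraries lay above the control ones without reaching line 1. The mean in line 1 was 38.4 times that of sgScr and 16.2 times that of line 2. On the log2 scale of the edgeR fit, Spp1 was higher by 5.19 ± 0.09 (SE) in line 1 and by 1.17 ± 0.09 in line 2 than in sgScr. Per kilobase of exon, which allows genes to be compared, Spp1 in line 1 reached 638 CPM, against 33.0 for Lypd2 and 1.91 for Mtus2 in the same libraries.

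Of 17 listed osteopontin relatives, receptors and proteases, 8 were tested in this table. None was higher and 1 was lower in line 2 than in line 1, with a list median log2 fold change of -0.10 beside 0.00 for all genes. The 1 gene was Itgb5, an integrin beta subunit of osteopontin receptors, at -0.63 ± 0.15 (adjusted p = 0.00819, edgeR). Itgb5 and Itgb6, another beta subunit, were above sgScr in both lines: Itgb5 rose by 1.09 ± 0.14 in line 1 and by 0.45 ± 0.14 in line 2, and Itgb6 by 1.01 ± 0.11 and 0.87 ± 0.12. Itgb1 fell by 0.21 ± 0.08 and 0.26 ± 0.08.

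Lypd2 (ENSMUSG00000022595.7, chr15:74732247-74734329, minus strand) had 2, 4 and 0 counts in the sgScr libraries, 423 and 365 in line 1 and 26 and 30 in line 2. In CPM this was 0.117, 0.184 and 0 against 23.0 and 21.9 and against 1.20 and 1.95. The 3 groups did not overlap, and line 2 lay nearer to sgScr than to line 1 on the CPM scale. The mean in line 1 was 224 times that in sgScr, a ratio that rests on 6 counts in the control group. Reads of Ly6/uPAR genes can be shared between near-identical copies, so counts of this family are uncertain.

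Lypd2 lies in a cluster of Ly6/uPAR genes on chromosome 15. Of 29 listed family members 14 were tested, of which 1 was higher and 3 were lower in line 2 than in line 1 (list median log2 -0.02). Ly6d, a marker of squamous keratinocytes and some lymphocytes, stood at 10.2 CPM in sgScr, 130 in line 1 and 17.5 in line 2 and fell by 2.89 ± 0.12 between line 1 and line 2 (adjusted p = 1.19e-09). Slurp1, a secreted keratinocyte protein, fell by 2.27 ± 0.67 at levels of 1.23 and 0.273 CPM. Ly6c1 moved the other way, by 0.80 ± 0.12, from 65.5 to 113 CPM.

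Mtus2 (ENSMUSG00000029651.16, chr5:147957320-148316065, plus strand, 18 merged exon blocks) had 1, 7 and 4 counts in sgScr, 458 and 407 in line 1 and 35 and 20 in line 2. These counts were 0.0586, 0.321 and 0.204 CPM, then 24.9 and 24.4 CPM, then 1.61 and 1.30 CPM. Line 1 was again apart from both other groups, and line 2 was above every control library. Against sgScr the log2 fold change was 6.79 ± 0.27 in line 1 and 2.74 ± 0.41 in line 2, on 12 counts in the control group.

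All 12 listed genes of proteins that bind microtubules or their plus ends were tested, and 4 were higher and 3 lower in line 2 than in line 1 (list median -0.07). Mtus1, the closest relative of Mtus2, moved opposite to it and was higher in line 2 by 0.92 ± 0.19 (adjusted p = 0.00329). Mapre1 and Mapre3, which encode the end-binding proteins EB1 and EB3, differed by -0.37 ± 0.09 and -0.64 ± 0.14. Mapre2, which encodes EB2, was higher by 0.37 ± 0.10. Clasp1, a stabiliser of plus ends, rose against sgScr by similar amounts in both lines, 0.94 ± 0.13 and 0.91 ± 0.13.

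Sim2 (ENSMUSG00000062713.8, chr16:94084931-94127032, plus strand) stood at 45.3, 42.6 and 48.8 CPM in sgScr, at 0.217 and 0.719 CPM in line 1 and at 34.9 and 36.1 CPM in line 2. In line 1 it rested on 4 and 12 counts. Line 1 had almost lost the transcript, and line 2 kept most of the control level without overlapping it. The sgScr mean was 97.3 times that of line 1 and 1.28 times that of line 2. Of 15 listed bHLH-PAS factors 9 were tested, and 2 were higher and 2 lower in line 2 than in line 1 (list median 0.24). Npas2, a clock-related factor, was higher by 1.24 ± 0.30 and Arnt, the partner of Sim2, by 0.41 ± 0.09. Clock and Hif1a differed by -0.36 ± 0.10 and -0.37 ± 0.09. Ahr, the aryl hydrocarbon receptor, rose against sgScr in both lines, by 0.93 ± 0.10 and 1.17 ± 0.10.

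Tenm3 (ENSMUSG00000031561.16, chr8:48227682-48843951, minus strand, 34 merged exon blocks) stood at 24.1, 23.1 and 25.4 CPM in sgScr, at 1.74 and 1.20 CPM in line 1 and at 22.1 and 15.3 CPM in line 2. The 2 line 2 libraries differed from each other more than the 3 controls did, and both lay below the lowest control. The log2 fold change against sgScr was -4.10 ± 0.21 in line 1 and -0.43 ± 0.15 in line 2. Of 13 listed teneurins and their receptors 9 were tested, and 1 was higher and none was lower in line 2 than in line 1 (list median 0.25). That gene was Unc5a, a netrin receptor, which was higher by 1.94 ± 0.20 (adjusted p = 1.31e-05). Flrt2 and Flrt3, membrane proteins that bind latrophilins beside teneurins, fell against sgScr in both lines, Flrt2 by 1.43 ± 0.23 and 1.01 ± 0.22 and Flrt3 by 0.96 ± 0.12 and 0.72 ± 0.12.

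Wnt5a (ENSMUSG00000021994.15, chr14:28504750-28527448, plus strand) and Rab6b (ENSMUSG00000032549.7, chr9:103111787-103185276, plus strand) lay on opposite sides of the control in the 2 lines. Wnt5a stood at 11.1, 10.6 and 12.5 CPM in sgScr, at 1.63 and 1.86 CPM in line 1 and at 24.3 and 21.6 CPM in line 2. Rab6b stood at 11.5, 10.2 and 14.04 CPM in sgScr, at 1.74 and 3.18 CPM in line 1 and at 30.1 and 32.5 CPM in line 2. For both genes every line 1 library was below and every line 2 library above all control libraries. Over all genes compared, 4.49% showed such non-overlapping levels in opposite directions and 1.32% passed the adjusted p of 0.05 in both lines in opposite directions. Against sgScr, Wnt5a differed by -2.78 ± 0.18 in line 1 and 0.94 ± 0.13 in line 2, and Rab6b by -2.36 ± 0.22 and 1.32 ± 0.16, on the log2 scale.

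**Figure D2:**
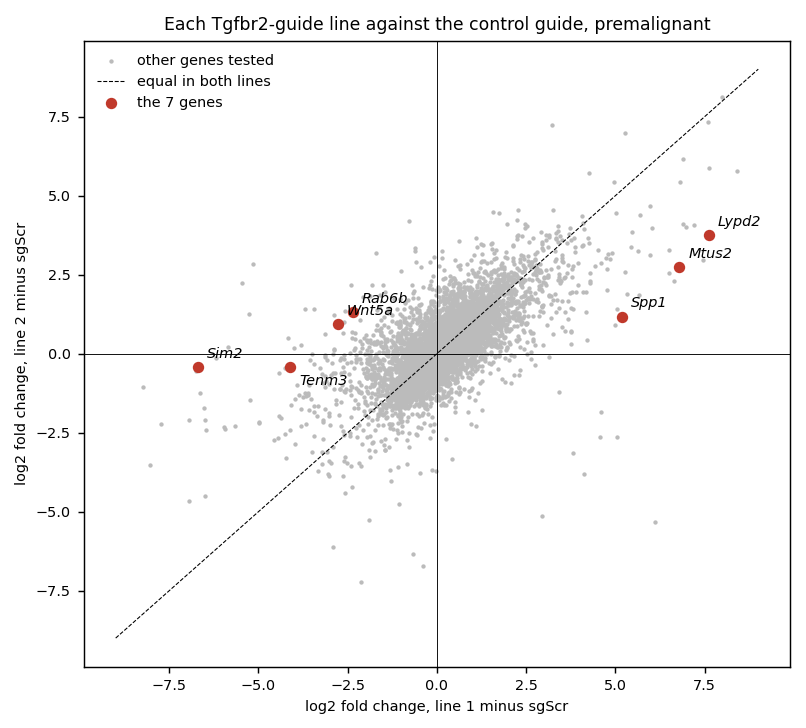
Log2 fold change against sgScr in premalignant line 1 (x axis) and line 2 (y axis) for all 13438 genes compared, with the 7 genes in red and a dashed line where both lines are equal. Wnt5a and Rab6b lie at the upper left, and the other 5 genes lie on the same side of 0 in both lines and closer to 0 in line 2.

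Other Wnt genes differed between the lines in both directions. Of 20 listed ligands and secretion genes 13 were tested, and 4 were higher and 3 lower in line 2 than in line 1 (list median -0.04). Wnt3a, a ligand of the beta-catenin pathway, was higher by 1.93 ± 0.28, from 1.20 to 4.61 CPM, and Wnt16 by 3.12 ± 0.81 at levels under 1 CPM. Wnt10a and Wnt10b differed by -0.69 ± 0.09 and -1.30 ± 0.37. Of 26 tested receptor and planar polarity genes 5 were higher and 2 lower (list median 0.18). Prickle1, a planar polarity protein, was higher by 1.94 ± 0.34 and the receptor Fzd7 by 0.72 ± 0.13, while Fzd1 and Fzd10 differed by -0.78 ± 0.14 and -0.71 ± 0.22.

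All 3 tested secreted Wnt antagonists, of 11 listed, differed between the lines. Sfrp1 and Dkk3 were higher in line 2 by 1.09 ± 0.13 and 1.16 ± 0.16, and Notum, an enzyme that removes the lipid of Wnt ligands, differed by -1.15 ± 0.17. Of 7 tested beta-catenin feedback and target genes 1 was higher, Rnf43 at 0.56 ± 0.15, and 1 was lower, Lef1 at -1.07 ± 0.32. Axin2, a widely used readout of beta-catenin signalling, did not pass the test between the lines and was lower than in sgScr, at -1.59 ± 0.21 in line 1 and -1.76 ± 0.21 in line 2.

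Among 16 tested regulators and effectors of Rab6, of 18 listed, 4 were higher and 2 lower in line 2 than in line 1 (list median 0.07). Mical1, an actin-oxidising effector of Rab proteins, was higher by 1.60 ± 0.26 and Kif20a, a mitotic kinesin that binds Rab6, by 0.38 ± 0.10. Bicd1, an adaptor between Rab6 and dynein, differed by -0.94 ± 0.19 and Rab8a by -0.35 ± 0.10.

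Genes next to the 7 on the chromosome were examined after their values had been seen. For each gene the 2 nearest tested protein-coding genes on either side were taken, 28 neighbours in all, by GENCODE M21 on GRCm38. Between line 2 and line 1, 14 of the 28 (50.0%) passed the adjusted p of 0.05, against 26.9% of the neighbours of all genes tested. In that comparison all 14 differed in the same direction as the gene they flank. Around all genes that lay 3 or more log2 units apart between the lines, 29.8% of neighbours passed and 62.0% of those shared the direction. No test of this difference was made, and the 7 genes were themselves chosen for their size of change.

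Beside Lypd2, Slurp1 at 4.21 kb, Them6 at 7.61 kb and Ly6d at 27.7 kb were lower in line 2, by fold changes of -2.27, -0.56 and -2.89 on the log2 scale. Slco2a1, a prostaglandin transporter gene 15.8 kb from Rab6b, was higher by 1.53 ± 0.15, from 24.2 to 69.5 CPM. Pkd2, a cation channel gene 18.4 kb from Spp1, differed by -1.06 ± 0.12. Pomp, which encodes a proteasome assembly factor 80.9 kb from Mtus2, differed by -0.97 ± 0.12 and the amino acid transporter gene Slc7a1, at 11.3 kb, by -0.49 ± 0.10. Ripply3 and Morc3, at 201 and 209 kb from Sim2, were higher by 1.66 ± 0.56 and 0.40 ± 0.09. Ripply3 was low, at 0.574 CPM in line 1 and 1.78 CPM in line 2. The nearest tested genes can lie far off: Ccdc66 and Chdh, higher by 0.89 ± 0.16 and 0.82 ± 0.26, lay 996 and 1482 kb from Wnt5a. None of the 4 neighbours of Tenm3 passed. The tested genes closest to Sim2, Rab6b and Wnt5a did not pass either. They were Hlcs at 1.85 kb (0.10 ± 0.12), Srprb at 2.76 kb (0.12 ± 0.10) and Erc2 at 26.2 kb (1.54 ± 0.60). Those closest to Spp1, Mtus2 and Lypd2, named above, did pass. Against sgScr, neighbours did not always share the direction of the gene they flank. In line 1 Slco2a1 rose by 0.61 where Rab6b fell by 2.36, and in line 2 Morc3 rose by 0.53 where Sim2 fell by 0.43. Ly6d rose with Lypd2 in both lines, by 3.60 and 0.70.

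**Figure D3:**
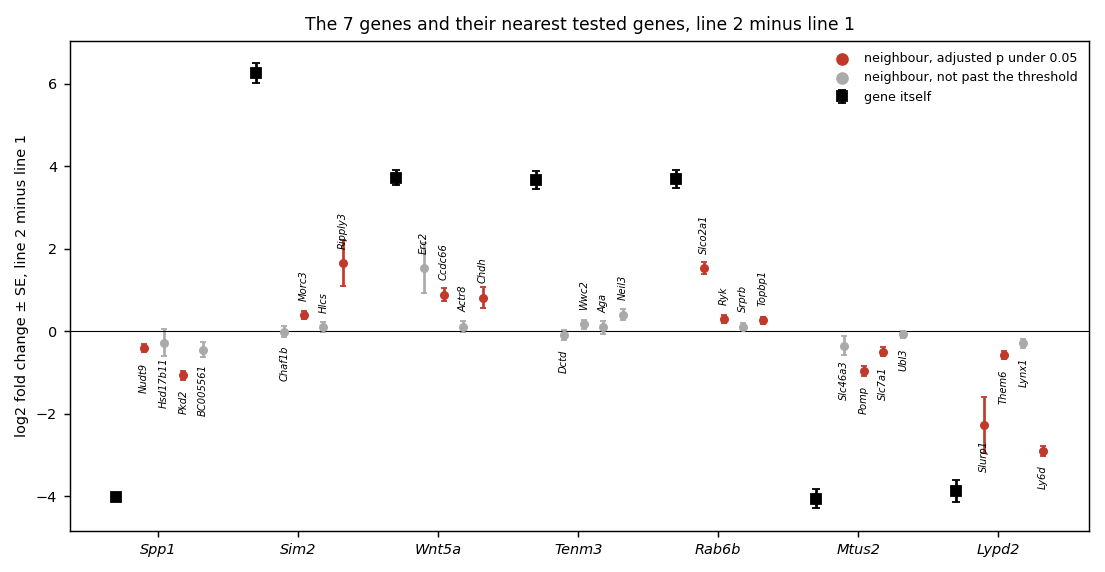
Log2 fold change ± SE between line 2 and line 1 for each of the 7 genes (black squares) and its 4 nearest tested protein-coding genes (circles, red where the adjusted p is under 0.05). Each red circle lies on the same side of 0 as the square beside it, and Ly6d next to Lypd2 lies furthest from 0 of the 28.

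A comparison that pools the lines gave other values. With the mean of both lines set against sgScr in the same fit, Wnt5a differed by -0.92 and Rab6b by -0.52 on the log2 scale. The authors' deposited table, which treats the 4 sgTgfbr2 libraries as 1 group, lists 0.05 for Wnt5a and 0.44 for Rab6b, so the sign of both differed between these summaries. Sim2 was at -3.56 as a mean of log2 values and at -1.41 in the authors' deposited table. For Spp1 the corresponding values were 3.18 in the fit and 4.30 in the authors' deposited table.

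In the tumor table, Spp1 and Sim2 differed between the guides in the direction in which both premalignant lines differed from sgScr, and the other 5 genes did not pass the test. The 2 called genes compare with 60.3% of the 15091 genes tested there, and 30.5% of genes fell as Sim2 did, so the share called among the 7 was below that of all genes. The libraries of 5 of the 7 did not overlap between the guides, beside 74.3% of all genes. Spp1 stood at 4.59, 6.53 and 6.77 CPM in tumor sgScr and at 136 and 139 CPM in tumor sgTgfbr2. All sgTgfbr2 libraries were far above the controls, a rise of 4.24 ± 0.17 on the log2 scale (edgeR quasi-likelihood test, adjusted p = 2.28e-15). Macrophages and fibroblasts can also make osteopontin, and their marker sums lay between 1031 and 3202 CPM in both groups. Smooth muscle markers summed to 387 to 420 CPM in tumor sgScr and to 1549 to 1686 CPM in tumor sgTgfbr2. Gastric gland and columnar markers were higher in tumor sgTgfbr2 as well, by the sums given above. The part of any of these cells in the rise of Spp1 was not tested.

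Sim2 stood at 103.6, 86.7 and 111 CPM in tumor sgScr and at 0.868 and 1.68 CPM in tumor sgTgfbr2, on 16 and 30 counts. The groups lay far apart, with a mean ratio of 78.9, and Sim2 fell by 6.59 ± 0.24 (edgeR, adjusted p = 2.92e-16). Between the same libraries skeletal muscle markers were lower and gastric gland markers higher in sgTgfbr2, by the sums given above. The squamous keratins Krt4 and Krt13 stood at 64026 and 56029 CPM in tumor sgScr and at 3986 and 7701 CPM in tumor sgTgfbr2. The part of these in the fall of Sim2 was not tested. Among tested genes called both here and between the lines, 58.5% of 2196 had the sign of line 1 minus line 2, as did both Spp1 and Sim2. That sign comes from the values by which the genes were chosen, so nothing is read from it.

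Wnt5a stood at 16.7, 14.04 and 18.1 CPM in tumor sgScr and at 20.7 and 18.4 CPM in tumor sgTgfbr2. The libraries did not overlap on the scale of library totals, and the fitted fold change after TMM scaling was -0.015 ± 0.19 (edgeR, adjusted p = 0.954). For the median gene of this table, library totals gave a fold change higher by 0.29 on the log2 scale than TMM. With library totals 64.3% of called genes were higher in sgTgfbr2, and with TMM 49.4%. Tenm3 was low in every library, at 2.06, 3.29 and 1.72 CPM and at 3.31 and 3.52 CPM, and differed by 0.23 ± 0.43 (adjusted p = 0.655).

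Lypd2 stood at 5.28, 5.00 and 5.46 CPM in tumor sgScr and at 8.84 and 6.77 CPM in tumor sgTgfbr2, and differed by 0.29 ± 0.28 (edgeR, adjusted p = 0.385). Both tumor groups were thus above premalignant sgScr and line 2 and below line 1 in Lypd2, with levels set across separately deposited tables. Mtus2 had 3, 4 and 11 counts against 12 and 8, and differed by 0.48 ± 0.92 (edgeR, adjusted p = 0.674). Rab6b had 12, 5 and 3 counts against 6 and 37. The fitted 1.46 ± 0.86 (adjusted p = 0.151) depended on 1 library: without sgTgfbr2 replicate 2 it was -0.35, and without replicate 1 it was 2.23 with an adjusted p of 0.0432 (range over all alternatives 0.0432 to 0.858).

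Among the partners of the 7 in the tumor table, 8 of 13 tested osteopontin relatives, receptors and proteases rose and none fell (list median 0.74 beside -0.02 for all genes). Over all genes tested 60.3% changed, 29.8% upward and 30.5% downward. Mmp7, a protease that cuts osteopontin, was at 0 in all tumor sgScr libraries and at 22.9 CPM in sgTgfbr2, and Mmp9 rose by 3.34 ± 0.43 to 10.8 CPM. The macrophage, fibroblast, smooth muscle and gastric gland sums stated above apply to this list as well. Of 22 tested Ly6/uPAR genes 8 rose and 8 fell (list median -0.56). Psca, a surface protein also made in stomach epithelium, rose from 25.3 to 6793 CPM beside the gastric gland markers, and Lypd8 rose from 0.487 to 33.1 CPM. Lypd5 went from 294 CPM to 0, and Ly6g6c fell from 563 to 63.0 CPM.

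Of 14 tested Wnt ligand and secretion genes 3 rose and 6 fell there (list median -0.36). Wnt16 fell by 3.47 ± 0.82, from 2.33 to 0.244 CPM, and Wnt3a fell to 0.364 CPM. Wnt5b, the closest relative of Wnt5a, rose by 2.78 ± 0.40 to 9.24 CPM and Wnt10a by 1.67 ± 0.18. Of 26 receptor and polarity genes 10 rose and 4 fell. Ror2, a receptor of Wnt5a, rose by 1.74 ± 0.36 and Fzd5 by 2.07 ± 0.24, and Fzd3 and Fzd10 fell by 2.17 ± 0.28 and 0.73 ± 0.23. Of 9 tested antagonists 3 rose, with Notum at 3.30 ± 0.51 and Sfrp2 at 1.90 ± 0.26, and 4 fell, with Sfrp5 at -3.12 ± 0.49 and Dkk2 at -2.26 ± 0.19. Of 6 tested beta-catenin feedback and target genes 3 rose, with Tcf7 at 2.45 ± 0.44 and Lgr5 at 1.36 ± 0.44, and none fell.

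Among 11 tested teneurins and receptors 4 rose and 2 fell in the tumor table. Tenm1 was at 0 in tumor sgScr and at 4.03 CPM in sgTgfbr2, while Tenm2 went from 8.20 to 0.224 CPM. Unc5b rose by 3.10 ± 0.22, and Adgrl2, a latrophilin that teneurins bind, fell by 0.80 ± 0.14. Of 11 tested bHLH-PAS factors 6 rose and 3 fell, with Arnt2 higher by 2.29 ± 0.36, Hif3a by 1.80 ± 0.60 and Arnt at -0.56 ± 0.16. Sim1, the closest relative of Sim2, was at 1.45 CPM in sgScr and at 0 in sgTgfbr2. Of 16 Rab6 regulators and effectors 2 rose, Bicd1 by 1.62 ± 0.42 and Erc1 by 0.73 ± 0.20, and 4 fell, among them Kif20a by 1.09 ± 0.22 and Ric1 by 0.96 ± 0.17. Of 12 microtubule plus-end genes 1 rose, Slain1 by 4.01 ± 0.84 to 2.57 CPM, and 5 fell, among them Ckap5 by 1.43 ± 0.15 and Mtus1 by 1.15 ± 0.14.

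Under PB, 5 of the 6 genes that passed the low-count filter changed, 1 up and 4 down, beside 73.3% of the 12801 genes tested in that table, of which 36.5% rose and 36.8% fell. The libraries of the same 5 did not overlap, beside 74.7% of all genes. The vehicle and PB libraries carried no skeletal muscle or fibroblast signal of the kind seen in the tumor table. Fibroblast sums were 0.258 to 0.727 CPM and skeletal muscle sums 5.07 to 8.48 CPM over the 6 libraries. Immune sums were 38.5 to 46.2 CPM. Smooth muscle sums were 143 to 147 CPM in vehicle and 112 to 123 CPM in PB, against 387 to 420 CPM in tumor sgScr. Epithelial markers differed between vehicle and PB as well. Squamous markers summed to 9956 to 10118 CPM in vehicle and 8332 to 8399 CPM in PB, with Krt4 at 390.0 and 102 CPM and Krt13 at 1246 and 635 CPM. Gastric gland and columnar markers summed to 722 to 734 CPM in vehicle and 458 to 465 CPM in PB. That list also holds the keratins Krt8, Krt18 and Krt20, and it summed to 832 to 881 CPM in premalignant sgScr. Of its members Pgc, Gkn2, Tff1 and Tff2 were at 0 in vehicle, and Gkn1, Gkn2, Tff1 and Tff2 in PB. The part of these marker differences between vehicle and PB in the results for the 7 genes was not tested. Rab6b stood at 13.6, 15.7 and 12.2 CPM in vehicle and at 4.47, 4.09 and 5.34 CPM in PB. The groups did not overlap, and Rab6b fell by 1.44 ± 0.13 on the log2 scale (edgeR, adjusted p = 2.82e-16).

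Spp1 stood at 3.76, 2.99 and 3.50 CPM in vehicle and at 7.34, 7.20 and 7.08 CPM in PB. Every treated library was above every vehicle library, with a rise of 1.21 ± 0.15 (edgeR, adjusted p = 1.77e-10), at levels that were still below those of premalignant sgScr. Sim2 stood at 8.72, 7.49 and 8.18 CPM in vehicle and at 4.34, 4.09 and 4.12 CPM in PB, and fell by 0.82 ± 0.14 (adjusted p = 6.99e-07). Its groups were also apart.

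Wnt5a fell least, from 27.8, 28.8 and 27.8 CPM in vehicle to 22.3, 21.7 and 20.7 CPM in PB, by 0.25 ± 0.07 (edgeR, adjusted p = 0.00152). Tenm3 stood at 3.70, 4.62 and 3.37 CPM in vehicle and at 2.33, 2.97 and 2.19 CPM in PB. It fell by 0.50 ± 0.20 (adjusted p = 0.0238), a call that was lost with DESeq2 (adjusted p = 0.0739) and without vehicle replicate 2 (0.151), PB replicate 1 (0.0704) or PB replicate 3 (0.0979), within a range of 0.00392 to 0.151 over all alternatives. Lypd2 had 10, 7 and 12 counts in vehicle and 4, 14 and 13 in PB, which overlapped (0.30 ± 0.43, adjusted p = 0.534). Mtus2, with 7, 2 and 11 counts against 1, 2 and 7, was below the filter.

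**Figure D4:**
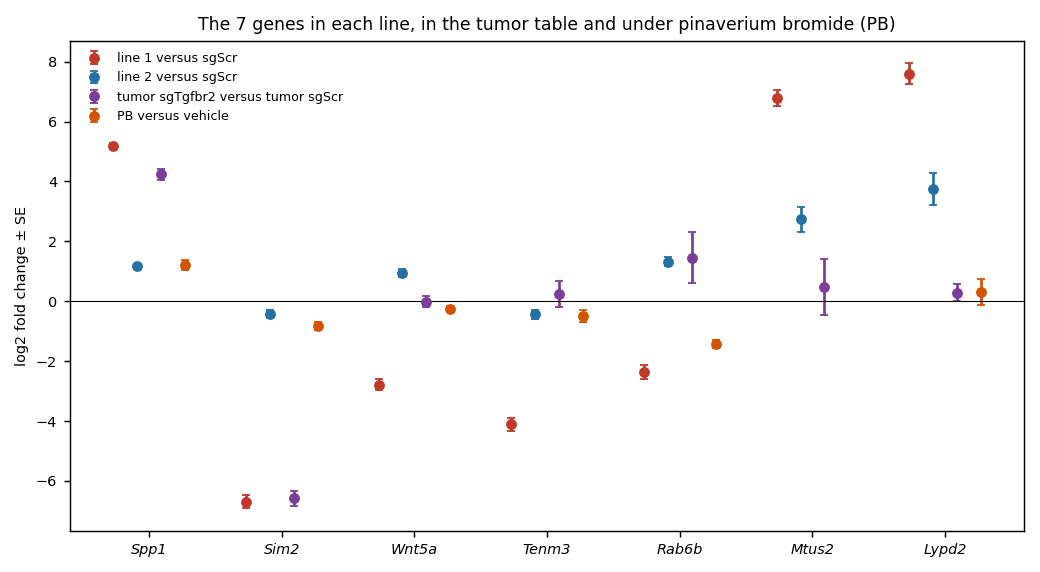
Log2 fold change ± SE of each of the 7 genes in line 1 and line 2 against sgScr, in the tumor table and under PB. Spp1 is above 0 and Sim2 below 0 in all 4, and Mtus2 has no point for PB because it was below the count filter.

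With library totals in place of TMM the median gene shifted by -0.14 on the log2 scale under PB, and 34.9% rather than 49.7% of called genes were higher, and all 5 calls among the 7 kept their direction. All 5 had the sign of line 1 minus line 2, against 51.6% of the 2502 genes called in both comparisons. That sign comes from the values by which the genes were chosen, with earlier results known, so nothing is read from this count. Vehicle organoids, which carry the Tgfbr2 guide, did not share the line 1 levels: Spp1 was at 3.42 ± 0.39 CPM (SD, n = 3) there and Wnt5a at 28.1 ± 0.55, each beyond the line 2 and sgScr levels on the side away from line 1. Levels of Sim2 and Tenm3 in vehicle lay between those of line 1 and line 2, and Rab6b overlapped premalignant sgScr. These orders set levels side by side across separately deposited tables.

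The partner lists moved in both directions under PB. Of 12 Wnt ligand and secretion genes 7 rose and 3 fell. Porcn, the enzyme that adds the Wnt lipid, rose by 0.85 ± 0.03 and Wnt11 by 0.82 ± 0.13, while Wnt2b fell by 2.41 ± 0.51 and Wnt6 by 0.53 ± 0.15. Of 24 tested receptor and polarity genes 8 rose and 9 fell, with Fzd5 at 0.89 ± 0.05, Fzd4 at 0.58 ± 0.07, Fzd9 at -2.30 ± 0.43 and Fzd2 at -1.28 ± 0.12. Rnf43 and Znrf3, ubiquitin ligases that remove Wnt receptors, rose by 1.38 ± 0.05 and 0.44 ± 0.06 among 4 tested beta-catenin feedback genes, of which 3 rose and none fell. Among 3 antagonists Dkk3 rose by 0.59 ± 0.16, and Sfrp1 and Notum fell by 0.56 ± 0.10 and 0.20 ± 0.08.

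Of 9 bHLH-PAS factors 6 rose and 3 fell under PB, with the clock factor Arntl higher by 1.56 ± 0.05, Ahr by 1.02 ± 0.05, Npas2 at -0.90 ± 0.14 and Npas1 at -0.75 ± 0.32. Of 9 teneurins and receptors 1 rose, Unc5b by 1.54 ± 0.05, and 4 fell, among them Tenm4 by 1.33 ± 0.12 and Unc5a by 0.36 ± 0.10. Of 16 Rab6 regulators and effectors 5 rose and 8 fell. Ric1, part of the exchange factor for Rab6, rose by 0.78 ± 0.04 and the kinesin Kif5b by 0.59 ± 0.02, while Bicd1 fell by 0.73 ± 0.12 and Gcc2, a Golgi tether, by 0.48 ± 0.06. Of 12 microtubule plus-end genes 4 rose and 4 fell, with Clasp1 at 0.84 ± 0.04, Ckap5 at 0.24 ± 0.03, Mtus1 at -0.66 ± 0.13 and Kif2c at -0.20 ± 0.04. Of 15 Ly6/uPAR genes 1 rose, Lypd6b by 0.93 ± 0.10, and 9 fell, among them Ly6i by 1.75 ± 0.39 and Ly6k by 0.70 ± 0.22. Of 6 tested osteopontin receptors and relatives Itgb1 and Itgb6 rose, by 0.46 ± 0.02 and 0.46 ± 0.08.

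Over all 18 libraries the genes whose log2(CPM + 0.5) most resembled that of each of the 7 were listed by Pearson's r, as a description of libraries that share tables, guides and depth. Spp1 was most like Tmed2 (r = 0.976), Maea and Ifngr2, and Sim2 like Abcb6 (0.902), Sprr1b and Rec8. Wnt5a was most like Tgfbi (0.893), Tpp1 and Ltb4r1, and Tenm3 like Ina (0.868), Capn1 and Cnnm1. Rab6b was most like Slc23a3 (0.962), Nptx1 and Mslnl, Mtus2 like Rhox4a (0.922), Pigz and Asb3, and Lypd2 like Irf8 (0.908), Atp1b1 and Rasal1. These lists depended on the tumor table. Over the 13 libraries outside it, Tmed2 ranked 9th, Abcb6 53rd, Tgfbi 4th, Ina 10th, Slc23a3 14th, Rhox4a 35th and Irf8 54th. Of all the genes listed only Maea, at rank 3 for Spp1, stayed as near the top. Among the 7 themselves, Mtus2 and Lypd2 had r = 0.702 over the 18 libraries and 0.971 over the 13 outside the tumor table, and Sim2 and Tenm3 had 0.490 and 0.940. The libraries form separate clusters by group, so these values describe group levels.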

How the data were processed

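Bulk RNA-seq was made from Trizol-extracted RNA of 18 libraries, per the labels' protocols. In 3 tables of 24421 genes, the authors deposited whole-number counts for each library and their log2 fold changes, per the file headers, and 18 further per-sample columns were not used. STAR 2.6.0a, DESeq2 1.26.0 and mm10 stand in the submitters' processing notes. The counting program and strand setting were not given in the sources used here.

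All 7 genes, the gene lists and the tests were chosen with earlier results of these data known. Groups came from titles and genotypes. Deposited counts were tested with R 4.3.3 and edgeR 4.0.16 (filterByExpr, minimum count 10, TMM, quasi-likelihood F test, two-sided, Benjamini-Hochberg over all genes tested, threshold 0.05), each table fitted alone, the premalignant table as sgScr, line 1 and line 2. Standard errors are the fold change over the square root of F. CPM are of the library total, and CPM per kb use merged exon lengths from GENCODE M21, where 23358 symbols were found. The scripts were tested on simulated data.

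Named were the 7 genes, Tgfbr2, up to 2 list members at each end past the threshold per comparison, of which those of the lines against sgScr are given in part, and the 3 genes of highest Pearson r among genes with a mean of at least 1 CPM. Other genes are named as sample checks, list counts of 1 or neighbours, chosen after their values were seen. Markers followed fixed lists. Libraries differed within groups by a chi-square per degree of freedom of 1.51 to 21.3 and between the lines by 38.1 to 57.7, so none were merged. Alternatives were DESeq2 1.42.0, RLE factors, library totals, limma-voom (limma 3.58.1), no filter, a 1 CPM filter, a replicate block, only the groups compared, and each replicate left out.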

Additional observations from a re-analysis of the deposited data

Results flagged for a closer look

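For Wnt5a, every library of line 1 lay below and every library of line 2 above the premalignant sgScr libraries, with log2 fold changes of -2.78 and 0.94. In the tumor table both sgTgfbr2 libraries lay above the sgScr ones in CPM, with a fitted value of -0.015 ± 0.19. For Tenm3, line 1 at -4.10 and line 2 at -0.43 were below sgScr in every library, and the tumor sgTgfbr2 libraries, from 3.31 CPM up, were above tumor sgScr, which reached 3.29 CPM. This separation was seen on library totals, and the fitted value was 0.23 ± 0.43 with an adjusted p of 0.655 (edgeR). For Rab6b, line 1 was below sgScr by -2.36 and line 2 above it by 1.32 in every library. Such differences in direction were not tested as differences, and the values of both premalignant lines were used to choose the genes.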

How the results depend on the processing

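The alternatives left the direction of the 7 genes as stated in 467 of 472 values. Most of these values are from the premalignant libraries on which the genes were chosen, where a kept direction says little. All 5 reversals fell in the tumor table, beside 74 values there with an unchanged call and 1 that gained a call. Between line 2 and line 1, 3535 genes passed, and 5365 with a replicate block. Deviations of same-numbered libraries from their group means correlated at -0.088 to 0.13 in the premalignant table, at -0.017 and -0.087 in the tumor table and at -0.0095 to 0.0061 under PB, so the numbers were not taken as pairs and the block is given only here. Leaving out each library in turn gave 1448 to 5047 genes between the lines, with 1448, 1934, 1555 and 1968 without line 1 replicate 1, line 1 replicate 2, line 2 replicate 1 and line 2 replicate 2. Refits without 1 library gave counts of 4533 (without line 1 replicate 2) to 7786 for line 1, where all libraries gave 6915, 5686 to 8513 for line 2 (7814), 8014 to 8648 in the tumor table (9095) and 9043 to 9106 under PB (9379). A line left with 1 library is assumed to vary like the other groups. Wnt5a in the tumor table reversed to 0.27 with library totals, 0.057 with a replicate block, 0.052 without tumor sgScr replicate 3 and 0.094 without tumor sgTgfbr2 replicate 2, and Rab6b to -0.35 without tumor sgTgfbr2 replicate 2. Without tumor sgTgfbr2 replicate 1 they were -0.14 and 2.23; the cause was not tested. The 1 CPM filter removed Rab6b and Mtus2 from the tumor table and Lypd2 from the PB table. Rab6b was also removed without tumor sgScr replicate 1 and Mtus2 without replicate 3. Counts of 12 or fewer per library limit Sim2 in line 1, Lypd2 and Mtus2 in premalignant sgScr and Rab6b in tumor sgScr. They also limit Mtus2 in every tumor, vehicle and PB library and Lypd2 in vehicle.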
